A study of Mus musculus with 6 samples.

Results

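The 10 genes described here were chosen as a fixed list of genes that define fat cells or coat and break down their lipid droplets: Adipoq, Plin1, Plin2, Plin4, Cidec, Cfd, Fabp4, Pparg, Cebpa and Lipe. All 10 were among the 26431 genes of the deposited table, and where a gene had several transcripts the one of highest mean level was taken. RNA came from the tibialis anterior (TA) muscle of C57BL/6 mice, 8 to 10 weeks old, with 3 uninjured, untreated mice and 3 mice at day 3 after cardiotoxin (CTX). CTX, a toxin of Naja mossambica venom that destroys muscle fibres, was injected as about 50 μl of a 10 μM solution into the belly of the muscle, and none of the 6 libraries is of a muscle injected with saline alone. All 6 samples are labelled female, whereas the study's general methods name male mice unless stated otherwise. Levels are in RPKM, a read number scaled to transcript length and to library size, so that levels can be compared between genes.

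White fat cells store triglyceride in a single large droplet, and in muscle they lie between the fibres and around nerves and vessels. The nuclear receptor PPARγ (Pparg) and the transcription factor C/EBPα (Cebpa) switch each other and the fat cell genes on. The droplet is coated by perilipin 1 (Plin1) and CIDEC (Cidec), which guard and enlarge it, and is emptied by lipases that include hormone-sensitive lipase (Lipe). Fat cells also secrete adiponectin (Adipoq) and adipsin (Cfd), a protease of the complement system. Some of these genes work outside fat: Plin2 coats small droplets in most cells, Plin4 is also abundant in muscle fibres, Fabp4 carries fatty acids in capillary endothelium and macrophages, Pparg and Cebpa act in macrophages, and Lipe acts in muscle.

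Promoter sequences of 9 of the 10 genes, in 13 windows of 250 bases before a start site, were found in the RefSeq table for GRCm38.p6. They were searched on both strands for the C/EBP letters TTGCNNAA, because Cebpa is itself one of the 10. These letters were in 3 of the 13 windows, those of Plin1, the downstream start of Cidec and the most downstream start of Pparg, and in 9.56% of all 32851 windows of the table. CCAAT was in 5 of the 13 windows (33.8% of all windows) and the E-box letters CAGCTG in 3 (13%). The PPAR repeat AGGTCANAGGTCA was in 0 of the 13 (0.0335%). The matches to TTGCNNAA are shown with their 30-base surroundings, 5′ to 3′ on the strand of the gene and with the match in capitals, so that the promoters that hold the letters of a factor among the 10 can be read. Adipoq and Cfd have none in their windows.
Plin1 at chr7:79732945-79732974 (minus strand): ccacctctttaTTGCCTAAacatcccccat
Plin1 at chr7:79732816-79732845 (minus strand): tctgagaggcaTTGCCCAAgattccctgga
Cidec at chr6:113434944-113434973 (minus strand): ggagggctctaTTGCTCAAgggcccatggg
Pparg at chr6:115421840-115421869 (plus strand): tgtaccaagtcTTGCCAAAgcagcagacag
Pparg at chr6:115422036-115422065 (plus strand): ttaaccaaccaatcTTTTGCAAgacataga
The last of these matches on the opposite strand and lies 16 bases before the start site. The nearer match of Plin1 lies 58 bases before the start and the other 187. A match of letters is a description and not a binding site.

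The libraries held 34202861 to 43062684 mapped reads, and 1 read in a transcript of 1 kb was worth 0.0232 to 0.0292 RPKM. The groups were compared by limma, on the log2(RPKM + 0.1) scale, in the 14446 genes whose mean reached 0.5 RPKM. A gene was called when it changed 2-fold or more with an adjusted p below 0.05. Of these genes 60.5% were called higher and 7.96% lower at day 3, and the median over them was a log2 fold change of 1.35. Of the 10 genes, all tested, 3 were called higher, 1 was called lower and 6 were not called, with a median log2 fold change of 0.09. The median over all genes moved to 0.94 with scaling to ERCC spike-ins (synthetic RNAs), to 0.06 with median-of-ratios scaling and to -0.03 with quantile normalization. The changes of the 10 genes are therefore also given relative to the median of 1.35, but those of most other genes are not. In the TA the 8 defining fibre markers summed to 46465 to 49942 RPKM before injury and to 1953 to 8668 at day 3. Among fat cell markers Adipoq, Plin1, Cidec and Cfd were detected in every library, whereas leptin (Lep) stayed between 0.042 and 0.377 RPKM. In whole muscle, fewer cells of a type and less RNA per cell cannot be told apart.

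The 4 genes most restricted to fat cells, Adipoq, Plin1, Cidec and Cfd, were not called between uninjured and day 3 muscle, and their spread between mice was among the widest of all genes. Adipoq, the hormone adiponectin, was at 2.07, 2.26 and 5.13 RPKM in uninjured replicates 1, 2 and 3 and at 3.58, 5.16 and 1.19 RPKM in day 3 replicates 1, 2 and 3. Uninjured replicate 3 and day 3 replicate 2 were alike and high, day 3 replicate 3 was the lowest of the 6, and the groups overlapped. The means were 3.15 ± 1.71 and 3.31 ± 2.00 RPKM (SD, n = 3). The log2 fold change was -0.03 with a 95% interval from -1.36 to 1.30 (adjusted p = 0.955 from limma), and 0.56 without day 3 replicate 3. That interval spans falls and rises of more than 2-fold.

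Plin1, which coats the large droplet and gates access of lipases, was the lowest of the 10, at 0.299, 0.384 and 0.957 RPKM in uninjured replicates 1, 2 and 3 and at 0.361, 0.817 and 0.193 RPKM at day 3. These values rest on few reads, 24, 28 and 69 in uninjured and 23, 54 and 13 in day 3 libraries. The high and low libraries were those of Adipoq, and the log2 fold change was -0.24 (95% interval -1.44 to 0.96, adjusted p = 0.658 from limma). Its second transcript in the table was also highest in uninjured replicate 3 (0.846 RPKM) and day 3 replicate 2 (0.967 RPKM) and lowest in day 3 replicate 3 (0.144 RPKM). The mean RPKM of Plin1, 0.502, lay just above the minimum of 0.5 for testing.

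Cidec, which fuses small droplets into large ones, was at 0.900, 1.26 and 1.97 RPKM in uninjured replicates 1, 2 and 3 and at 1.03, 1.14 and 0.211 RPKM at day 3. Day 3 replicate 3, with 13 reads, stood below all others, and the other 2 day 3 libraries lay within the uninjured range. The log2 fold change was -0.90 (95% interval -2.20 to 0.41, adjusted p = 0.157 from limma), and -0.25 without day 3 replicate 3. Cfd, the serine protease adipsin, was the most abundant of the 4, at 12.6, 13.7 and 28.5 RPKM in uninjured and 12.1, 19.04 and 1.79 RPKM in day 3 replicates 1, 2 and 3. Its day 3 libraries spanned 10.6-fold (95% interval of the read ratio 8.14 to 14.1, covering counting error only). Its log2 fold change was -1.17 (95% interval -3.14 to 0.80, adjusted p = 0.213 from limma) and -0.16 without day 3 replicate 3.

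**Figure D1:**
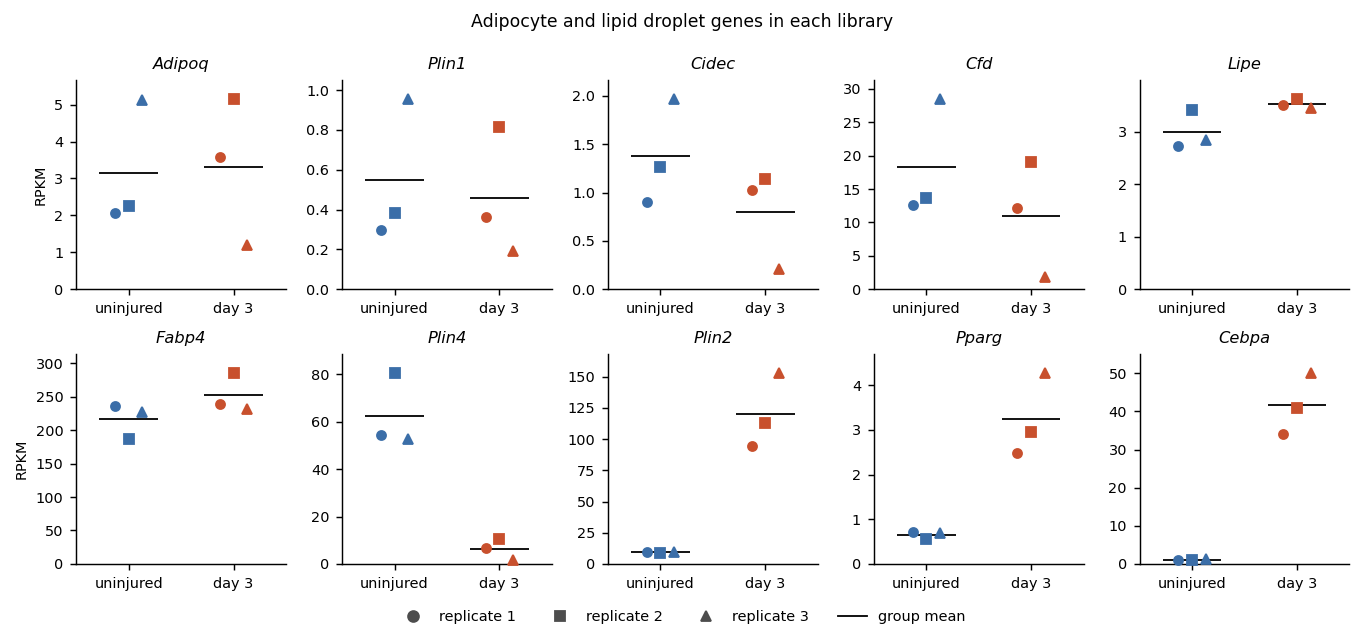
RPKM (vertical axes, from 0, a different scale for each gene) of the 10 genes in the 3 uninjured and 3 day 3 libraries, with circles, squares and triangles for replicates 1, 2 and 3 and a line for the group mean. Adipoq, Plin1, Cidec and Cfd overlap between the groups with uninjured replicate 3 high and day 3 replicate 3 low. The groups of Plin2, Pparg, Cebpa and Plin4 lie apart, as do those of Lipe by a small margin.

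The 4 genes were high and low in the same mice. Uninjured replicate 3 was above the mean of the other 2 uninjured replicates for 4 of 4, by a median log2 difference of 1.16, and day 3 replicate 2 was above the other 2 day 3 replicates for 4 of 4, by 1.29. Day 3 replicate 3 was below for 4 of 4, at a median of -1.85. Over all 14446 tested genes the same 3 medians were 0.013, -0.040 and 0.056. The highest library exceeded the lowest by 2.19-fold (Cidec) to 3.196-fold (Plin1) in uninjured muscle and by 4.23-fold (Plin1) to 10.6-fold (Cfd) at day 3. Every one of these 8 ratios had a 95% counting interval above 1, the lowest bound being 1.62. The highest and lowest libraries were picked by their values, which favours such intervals and is not allowed for in them.

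The residual SD of the fit, which measures the spread between mice on the log2 scale, was 0.895 for Adipoq, 0.787 for Plin1, 0.872 for Cidec and 1.33 for Cfd. These lay at the 98.5th to 99.8th percentile of all tested genes, whose median was 0.134. The 8 fibre markers were as widely spread in this measure, which pools both groups, with 0.602 to 1.32, at the 97.2nd to 99.8th percentile. Plin4 was also in this range with 0.957, so that 5 of the 10 were in the top 10%. Plin2, Pparg and Cebpa had 0.249, 0.293 and 0.285, Fabp4 had 0.171, and Lipe had 0.120, below the median gene. With 1 added to the RPKM in place of 0.1, 8 of the 10 were in the top 10%, and 3 were over genes with a mean of at least 2 RPKM, a minimum that Plin1, Cidec and Pparg do not reach. Within the groups, the SD of log2(RPKM + 0.1) of the 4 genes was 0.53 to 0.74 in uninjured and 0.83 to 1.77 in day 3 muscle. For the fibre markers Ckm, Pvalb and Atp2a1 it was 0.058 to 0.084 in uninjured and 1.38 to 1.86 in day 3 muscle. For Plin4 it was 0.34 and 1.31.

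Other tested fat cell markers had a like order among the day 3 libraries but not among the uninjured ones. Of 16 further white fat cell genes 10 were tested, of which 7 were highest in day 3 replicate 2 and 6 lowest in day 3 replicate 3, where 24.4% and 30.7% of all tested genes were. In uninjured replicate 3 the median log2 difference of these 10 was -0.0039, with 5 above and 5 below the other replicates, and 4 were highest there, against 33.8% of all tested genes. Of the 6 genes under the minimum for testing 5 were highest in that library, and of all 16 it was 9. Resistin (Retn), a hormone of mouse fat named here after its values were seen, was at 1.20, 0.896 and 1.38 RPKM in uninjured and 0.390, 1.18 and 0.185 RPKM in day 3 replicates 1, 2 and 3. Markers of other tissue parts moved in some of these libraries. The 8 fibre markers lay below the other 2 day 3 replicates in day 3 replicate 3 for 8 of 8, at a median log2 difference of -2.21, and above them in day 3 replicate 2 for 8 of 8, by 1.55. In uninjured replicate 3 the fibre markers differed from the other replicates by a median of 0.084. Fibro-adipogenic progenitors are cells that lie in muscle tissue outside the fibres and can become fat cells. Their 8 markers were above in uninjured replicate 3 for 8 of 8, by a median of 0.21, and in day 3 replicate 2 for 7 of 8, by 0.33. The 10 macrophage markers were above in uninjured replicate 3 for 8 of 10, by 0.24, and likewise in uninjured replicate 1 for 8 of 10, by 0.23. In uninjured replicate 1 the 4 genes were below for 4 of 4. The 6 Schwann cell markers, whose summed level ran from 13.9 to 25.04 RPKM at day 3 and from 15.9 to 31.4 before injury, were lowest in uninjured replicate 3 for 6 of 6. At day 3 they were highest in replicate 2 for 5 of 6 and lowest in replicate 3 for 5 of 6, as the fat cell genes were. The 6 skin markers summed to 0.951 to 1.01 RPKM before injury and to 0.968 to 1.04 at day 3, most of it from Krt10 and Trp63, while Krt5 and Krt14 were listed at the lowest value, 0.01 RPKM, in all uninjured libraries. The part of these cell types in the spread of the 4 genes was not tested.

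**Figure D2:**
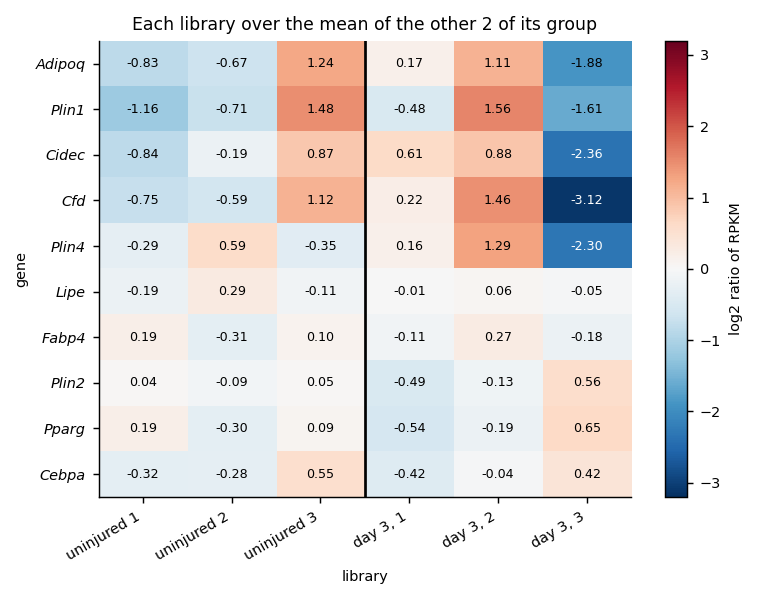
Log2 ratio of RPKM in each library (columns) over the mean of the other 2 libraries of its group, for the 10 genes (rows), red above and blue below 0. Adipoq, Plin1, Cidec and Cfd are red in uninjured replicate 3 (0.87 to 1.48) and blue in day 3 replicate 3 (-3.12 to -1.61), Plin4 shares only the latter, and Plin2, Pparg and Cebpa are red in day 3 replicate 3 (0.42 to 0.65).

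Fabp4 and Lipe, shared by fat with other cells, stayed within narrow limits on the RPKM scale. Fabp4, the fatty acid carrier of fat cells, macrophages and capillaries, was the most abundant of the 10 in both groups. It stood at 236, 186 and 227 RPKM in uninjured and 240, 285 and 232 RPKM in day 3 replicates 1, 2 and 3, and the groups overlapped between 232 and 236 RPKM. Its log2 fold change was 0.22 (95% interval -0.07 to 0.52, adjusted p = 0.125 from limma), and its sign flipped to -0.20 with ERCC, -0.21 with quantile and -1.12 with median-of-ratios scaling, the last a call. Relative to the median of all genes it was at -1.13.

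Its day 3 libraries had the order of those of Adipoq, with replicate 2 highest and replicate 3 lowest, but a narrower range, replicate 3 being 0.886 times the mean of the other 2. Among the uninjured libraries its order differed, replicate 1 being the highest. Cell types that use Fabp4 differed in their markers at the same time. The 10 macrophage markers were all called higher, as were 60.5% of all tested genes. Their summed level went from between 8.80 and 14.6 to between 1378 and 2015 RPKM. Of the 10 endothelial markers none was called higher (60.5% of all tested genes) and 1 was called lower (7.96%). This was Flt1, a receptor for VEGF, at -1.13 (standard error 0.11). With median-of-ratios scaling 6 endothelial markers were lower. The sum of the 10 was 123 to 138 RPKM before and 135 to 144 RPKM after injury. The part of either cell type in the level of Fabp4 was not tested.

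Lipe, the hormone-sensitive lipase, was at 2.73, 3.42 and 2.85 RPKM in uninjured and 3.51, 3.63 and 3.45 RPKM in day 3 replicates 1, 2 and 3. Every day 3 value was above every uninjured one, by a small margin. On the log2 scale its change was 0.23 by limma (standard error 0.10, adjusted p = 0.0596), not a call, and it flipped to -0.18 with ERCC, -1.07 with median-of-ratios and -1.25 with quantile scaling, the last 2 being calls. The second Lipe transcript, of 3221 against 2785 nt, was at 2.502, 2.71 and 2.56 RPKM and 2.74, 3.40 and 3.27 RPKM in the same order.

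Plin4 fell and Plin2 rose, so that the perilipins exchanged places. Plin4, which coats droplets in fat cells and is abundant in fibres, was at 54.4, 80.5 and 52.7 RPKM in uninjured and 6.88, 10.6 and 1.77 RPKM in day 3 replicates 1, 2 and 3. All day 3 libraries were far below all uninjured ones, and replicate 3 was again the lowest. The mean was 9.75-fold lower, and limma gave -3.57 on the log2 scale (standard error 0.60, adjusted p = 7.5e-04). Without day 3 replicate 3, Plin4 was still called, at -2.83. The fibre markers were called lower for 8 of 8 (7.96% of all tested genes), with a median of -3.78. Day 3 replicate 3 was lowest for each of them, as for Plin4. The part of fibre loss in the fall of Plin4 was not tested.

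Plin2, the perilipin of small droplets in most cells, was at 9.34, 8.75 and 9.36 RPKM in uninjured and 94.7, 113 and 153 RPKM in day 3 replicates 1, 2 and 3. The uninjured values differed by 1.07-fold, and every day 3 library was far above them. The mean was 13.1-fold higher, and limma gave 3.67 on the log2 scale (standard error 0.16, adjusted p = 5.02e-07), or 2.32 relative to the median gene. Plin2 was called higher under all 3 other scalings, at 2.34 to 3.25.

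The remaining perilipins also moved apart on the RPKM scale. Plin5, which ties droplets to mitochondria in oxidative tissue, was at 2.98, 8.87 and 3.46 RPKM in uninjured and 0.301, 0.581 and 0.114 RPKM in day 3 replicates 1, 2 and 3, a log2 fold change of -3.57 (standard error 0.53). Plin3, a perilipin of many tissues named after its values were seen, was at 11.6, 25.4 and 12.3 RPKM and at 33.4, 33.9 and 37.6 RPKM. Its log2 fold change was 1.18 (standard error 0.28), or -0.17 relative to the median gene. The call was lost with ERCC (0.75) and quantile scaling (0.20) and without uninjured replicate 1 (0.98). The sign flipped to -0.16 with median-of-ratios scaling. Among uninjured mice, Plin3, Plin4 and Plin5 were highest in replicate 2, whereas Plin1 was highest in replicate 3.

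The fatty acid binding proteins showed a like division. Fabp3, the carrier of muscle and heart, was between 258 and 369 RPKM in uninjured and between 25.2 and 61.9 RPKM in day 3 muscle, a log2 fold change of -2.98 (standard error 0.32). Fabp5, found in skin, macrophages and many other cells, went from between 1.66 and 2.35 to between 92.8 and 150.5 RPKM, with 5.81 (standard error 0.19). Fabp7, the brain form, was called higher at 2.92 (standard error 0.28) from a level of at most 0.102 RPKM. It passed the minimum for testing only through its day 3 level, and the other 5 family members in the table were under the minimum. The difference in fold change between Fabp4 and its relatives was not tested.

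**Figure D3:**
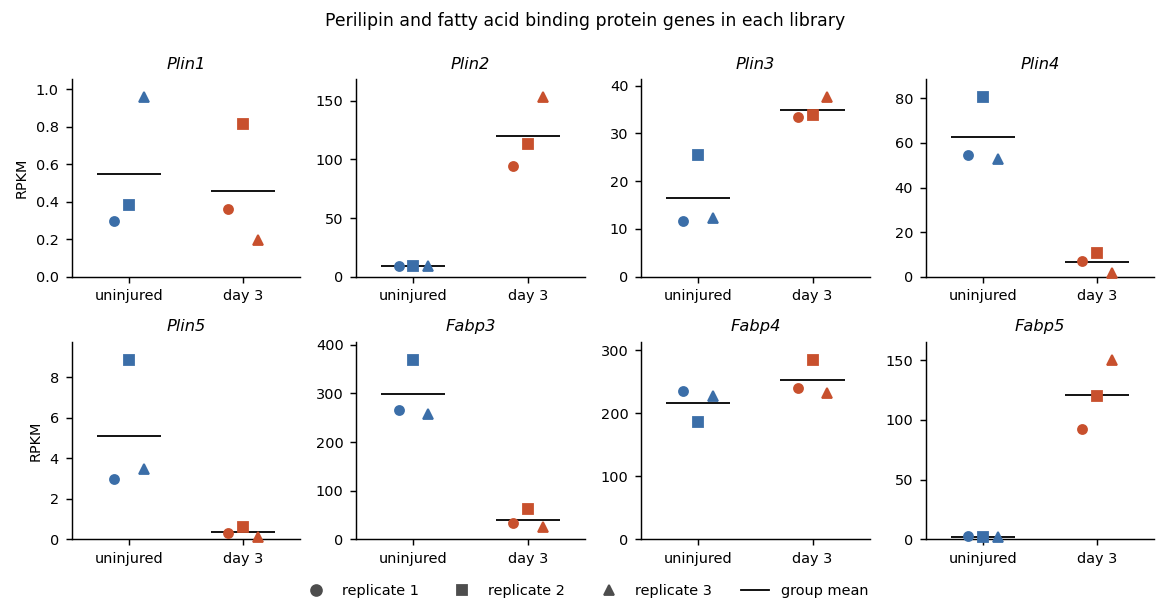
RPKM on vertical axes that start at 0, each gene on its own scale, of the perilipins Plin1 to Plin5 and of Fabp3, Fabp4 and Fabp5 in each library, with markers for replicates 1, 2 and 3 and a line for the group mean. Plin4, Plin5 and Fabp3 lie lower at day 3, Plin2, Plin3 and Fabp5 lie higher on this scale (Plin3 not with median-of-ratios scaling), and Plin1 and Fabp4 overlap.

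Both master regulators of the fat cell programme rose, although the 4 fat cell genes were not called. Cebpa, which sustains the mature fat cell and is also a factor of myeloid cells, was at 0.958, 0.977 and 1.42 RPKM in uninjured and 34.0, 40.8 and 50.0 RPKM in day 3 replicates 1, 2 and 3. The groups lay far apart, with a mean 37.2-fold higher at day 3. On the log2 scale its change was 5.10 by limma (standard error 0.19, adjusted p = 2.34e-07), above that of 96.9% of all tested genes. It was 3.75 relative to the median gene, and 3.65 to 4.69 under the other scalings.

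Pparg, the receptor that drives fat cell formation and lipid uptake, was at 0.713, 0.565 and 0.681 RPKM in uninjured and 2.49, 2.96 and 4.26 RPKM in day 3 replicates 1, 2 and 3. Every day 3 library was above every uninjured one, the mean being 4.96-fold higher. On the log2 scale its change was 2.12 by limma (standard error 0.20, adjusted p = 2.88e-05), or 0.77 relative to the median gene, and the call was lost with median-of-ratios scaling (0.88) and quantile normalization (0.40). A second Pparg transcript was at 0.669, 0.434 and 0.759 RPKM and then at 2.46, 3.28 and 3.72 RPKM, close to the first in each library. The handling of reads that fit both transcripts is not given in the sources used here.

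Plin2, Pparg and Cebpa were each highest in day 3 replicate 3, the library in which the other 7 genes, Fabp4 and Lipe included, were lowest at day 3. All 10 macrophage markers were also highest in that library among the day 3 libraries. Of all 14446 tested genes, 8627 were above the other 2 day 3 libraries there, and 30.7% were lowest there. Mpeg1, a pore protein of macrophages, had a log2 fold change of 8.37, and Trem2 and Gpnmb, surface proteins of lipid-laden macrophages, had 8.58 and 8.47. Trem2 passed the minimum for testing only through its day 3 level. The part of macrophages in the rise of the 3 genes was not tested. Without day 3 replicate 3 the log2 fold changes were 3.49 for Plin2, 1.91 for Pparg and 4.96 for Cebpa, all called.

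**Figure D4:**
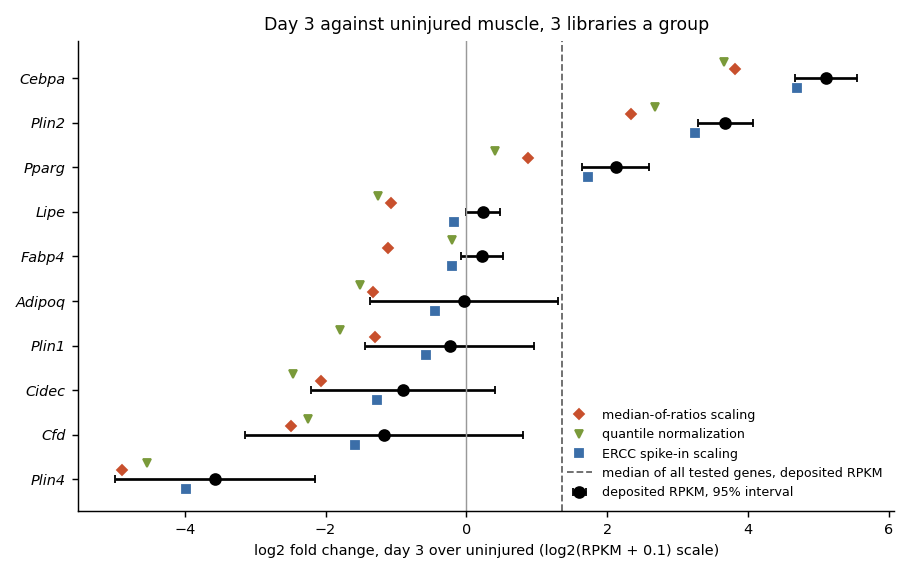
Log2 fold change of day 3 over uninjured (horizontal axis, log2(RPKM + 0.1) scale) for the 10 genes, with black points and 95% intervals for the deposited RPKM and coloured markers for 3 other scalings. The dashed line is the median of all tested genes at 1.35. Cebpa and Plin2 lie above 0 and Plin4 below 0 under each scaling, while Fabp4 and Lipe change sign.

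Relative to the median of all tested genes, Adipoq was at -1.39, Plin1 at -1.59, Cidec at -2.25, Cfd at -2.52, Lipe at -1.12 and Plin4 at -4.92. With median-of-ratios scaling, Plin1 (-1.30), Cidec (-2.07) and Cfd (-2.49) were called lower and Adipoq (-1.32, adjusted p = 0.0596 from limma) was not. With quantile normalization all 4 were called lower, at -2.46 to -1.52. With ERCC scaling none of the 4 was called, at -1.59 to -0.44. The count of called genes among the 10 was thus 3 higher and 1 lower with the deposited RPKM and with ERCC scaling, and 2 higher and 6 lower with the other 2 scalings. Over all 14446 genes median-of-ratios scaling called 3802 higher and 3254 lower, and quantile normalization 3560 and 3313.

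The order of levels changed accordingly. In uninjured muscle it ran Fabp4 (216 ± 26.4 RPKM), Plin4 (62.5 ± 15.6), Cfd (18.3 ± 8.91), Plin2 (9.15 ± 0.344), Adipoq (3.15 ± 1.71), Lipe (2.999 ± 0.365), Cidec (1.38 ± 0.545), Cebpa (1.12 ± 0.259), Pparg (0.653 ± 0.0781) and Plin1 (0.547 ± 0.357; all SD, n = 3). The libraries of the neighbours Adipoq and Lipe, Cidec and Cebpa, and Pparg and Plin1 overlapped. At day 3 Plin2 (120 ± 29.7 RPKM) and Cebpa (41.6 ± 8.01) followed Fabp4 (252 ± 28.5), ahead of Cfd (10.97 ± 8.68) and Plin4 (6.41 ± 4.42; SD, n = 3). From Cfd down to Pparg each neighbour overlapped the next, and Cidec overlapped Plin1.

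Genes of the same pathway were taken from 10 further lists. Their counts stand beside 60.5% of all 14446 tested genes called higher and 7.96% called lower. Median-of-ratios scaling called 3802 of all genes higher and 3254 lower, and quantile normalization 3560 and 3313. Of the 16 further white fat cell genes, 10 were tested, 1 was called higher, 2 were called lower and 7 were not called, with a median of -0.36. With median-of-ratios and with quantile scaling 7 were lower and none higher. Adig, a small protein of fat cells, fell, at -1.82 (standard error 0.49) and Thrsp, a lipogenic protein, at -1.29 (standard error 0.22). Lpl, the lipoprotein lipase that fibres and macrophages also make, was the most abundant and was not called, at -0.54 (standard error 0.16). It was called lower with median-of-ratios (-1.88) and quantile (-1.25) scaling. Rbp4, the retinol carrier, was higher at 1.55 (standard error 0.24), a call lost with median-of-ratios (0.45) and quantile (-0.00017) scaling. With an uninjured mean of 0.251 RPKM, Rbp4 passed the minimum for testing only through its day 3 mean of 0.952 RPKM. Of 10 brown and beige fat markers 4 were tested and 3 were higher. With median-of-ratios scaling 1 was higher, and with quantile scaling 1 was higher and 1 lower. Among the 3 were Tmem26, a beige marker, at 3.73 (standard error 0.22), and Dio2, a thyroid hormone deiodinase, at 2.07 (standard error 0.28). The call of Dio2 was lost with median-of-ratios (0.87) and quantile (0.38) scaling. Tmem26 and Dio2, with uninjured means of 0.026 and 0.484 RPKM, passed the minimum for testing only through their day 3 levels. Ucp1, the uncoupling protein that defines brown fat, was listed at 0.01 RPKM in all uninjured libraries and reached at most 0.051 RPKM at day 3.

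Of 14 activators of fat cell formation, all tested, 7 were higher, 1 was lower and 6 were not called, beside 60.5% and 7.96% of all tested genes. Median-of-ratios scaling gave 2 higher and 6 lower, beside 3802 and 3254 of all 14446 genes. Klf5, an early activator, rose by 2.89 (standard error 0.13) and Egr2 by 2.41 (standard error 0.14), the latter call being lost with quantile scaling (0.88). Egr2 passed the minimum for testing only through its day 3 level. Klf15, a factor of fat and muscle metabolism, fell, at -3.68 (standard error 0.56). Cebpb, which acts before Cebpa and Pparg, was the most abundant and was at 0.12 (standard error 0.27), and at -1.21 to -0.30 under the other scalings. Of 7 inhibitors 4 were tested and 1, the deacetylase Sirt1, was higher at 1.31 (standard error 0.11), but not with the other 3 scalings (-0.30 to 0.90).

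Among 13 further droplet genes, 11 were tested, 6 were higher and 3 lower, against 1 and 5 in median-of-ratios scaling. The shares of all tested genes were 60.5% higher and 7.96% lower. Fitm1, which promotes droplet formation in muscle, fell from at least 140 to at most 37.0 RPKM (log2 fold change -2.44, standard error 0.31). Hsd17b11, a droplet-bound dehydrogenase, rose by 2.73 (standard error 0.08), and Bscl2, the droplet biogenesis protein seipin, by 2.00 (standard error 0.11), with the latter call lost in median-of-ratios (0.69) and quantile (0.56) scaling. Of 15 lipolysis genes 13 were tested, 3 were higher and 4 lower, against 3 and 8 in median-of-ratios scaling. Pnpla2, the lipase ATGL that acts before Lipe and is named after its values were seen, fell, at -1.48 (standard error 0.19), and its inhibitor G0s2 at -1.73 (standard error 0.14). Ces1d, a carboxylesterase that hydrolyses triglyceride, fell, at -4.83 (standard error 0.50). Lipa, the acid lipase of lysosomes, rose by 4.79 (standard error 0.15) and Prkar2b, a regulatory subunit of protein kinase A, by 4.597 (standard error 0.22). Prkar2b passed the minimum for testing only through its day 3 level. The most abundant, the catalytic subunit Prkaca, was not called at 0.65 (standard error 0.09), and was at -0.69 with median-of-ratios and -0.20 with quantile scaling.

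Of 17 genes of triglyceride synthesis, 15 were tested, 8 were higher and 5 lower, against 4 and 6 in median-of-ratios scaling. Over all tested genes 60.5% were higher and 7.96% lower. Lpin1, the phosphatidate phosphatase of muscle and fat, fell, at -3.03 (standard error 0.42), while Lpin2 rose by 3.44 (standard error 0.13). Lpin2 passed the minimum for testing only through its day 3 level. Gpd1, which makes glycerol phosphate, fell, at -3.99 (standard error 0.71), and the acyl-CoA synthetase Acsl5 rose by 3.71 (standard error 0.14). All 12 genes of fatty acid synthesis were tested, of which 9 were higher and 3 lower, against 6 and 3 with both median-of-ratios and quantile scaling. The desaturase Scd2 rose by 3.73 (standard error 0.09) and the elongase Elovl6 by 3.32 (standard error 0.13). Elovl6 passed the minimum for testing only through its day 3 level. Mlxipl, the carbohydrate-response factor ChREBP, fell, at -3.28 (standard error 0.64) and Acacb, the mitochondrial acetyl-CoA carboxylase, at -3.19 (standard error 0.34).

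Of 7 genes that act with adiponectin and adipsin 4 were higher, none was lower and 3 were not called, against 2 higher and 3 lower in median-of-ratios scaling. The shares over all tested genes were 60.5% higher and 7.96% lower. Cfb, the complement factor that adipsin cleaves, rose by 5.01 (standard error 0.15), and properdin (Cfp), which stabilises the resulting convertase, by 5.01 (standard error 0.19), while Cfd itself was not called. The adiponectin receptor Adipor1 was abundant and was at -0.24 (standard error 0.06), not a call, but it was called lower with median-of-ratios scaling (-1.58). Of the 8 markers of fibro-adipogenic progenitors 6 were higher and none was lower (3 and 1 in median-of-ratios scaling), with Pdgfra, the receptor that marks them, at 2.93 (standard error 0.13).

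The genes most like Adipoq, Fabp4 and Plin2 were found by the root mean square difference of log2 values over the 6 libraries, after each gene was centred on its own mean. Nearest to Adipoq was Plin1, at 0.27. It was followed by Pi16, a marker of progenitor-type fibroblasts, at 0.35, and by D830015G02Rik, Tmsb15l and B3galt2 at 0.37 to 0.42. Cidec was the 10th nearest of all tested genes, at 0.48, whereas Cfd ranked 726th at 0.70, behind Fabp4 at rank 407 with 0.68. Pi16 was at 8.39, 8.64 and 14.6 RPKM in uninjured and 8.99, 16.8 and 6.61 RPKM in day 3 replicates 1, 2 and 3. Nearest to Plin2 were Ugt1a9, Fnip2, Dnase2a, Gpx1 and Plau, at 0.062 to 0.087. Of these, Dnase2a, a lysosomal nuclease, was between 2.04 and 2.39 RPKM before and between 23.7 and 33.9 RPKM after injury. Nearest to Fabp4 were 1110001A16Rik, D19Ertd737e, Nfib, Eif2d and Ralgapa2, at 0.060 to 0.081, and none of the other 9 genes was among these 5.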

How the data were processed

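Libraries from 1 μg of total RNA of each muscle were read as 50 nt single reads. BWA was used by the authors for alignment against RefSeq transcripts of the mouse, and they deposited RPKM values per transcript, 1 column per library; the submitters' processing notes also name CASAVA 1.4 and SAMtools 0.1.19. The handling of multiply matching reads and of strand is not given in the sources used here. Of 34302 listed sequences, 92 ERCC spike-ins and 4 others (the whole mitochondrial genome, adapters and contaminants) stayed out of the tests. Library totals were recovered as the number that makes the lowest value above 0.01 equal to 1 read, and 100% of values above 0.01 then came to whole reads within 0.01 read. The value 0.01 was read as 0 reads. Each gene was represented by its transcript with the highest mean.

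Groups were fitted in R 4.3.3 by limma 3.58.1 (lmFit, eBayes with trend) using log2(RPKM + 0.1), which understates the change of low genes, over genes with a mean of at least 0.5 RPKM. A gene below that minimum in uninjured muscle could pass through its day 3 level alone, which favours a call higher. Such genes include Tmem26, Rbp4, Dio2, Fabp7, Egr2, Lpin2, Elovl6, Prkar2b and Trem2. P-values were adjusted by Benjamini-Hochberg over the 14446 genes, and standard errors and intervals come from this fit. The fit was tested on simulated data with few changed genes and no general shift, a setting unlike that of these libraries. Other steps used Python 3.11.15 with SciPy 1.17.1, NumPy 2.4.6, matplotlib 3.10.9 and pandas 2.3.3. Read ratios have exact 95% intervals that cover counting error only, since reads are not independent molecules. They make no allowance for picking the highest and lowest library by value. P-values test the difference between the groups against the spread between 3 mice a group. That spread is moderated by limma towards a trend over all tested genes. The 10 genes, the lists and the rules were chosen with earlier results of these data known, and Ces1d had been named in those results. Named were the 10 genes, the most abundant member and up to 2 higher and 2 lower members of each list, and the 5 genes nearest to Adipoq, Fabp4 and Plin2; exceptions are marked. Alternatives varied the pseudocount (0.01 and 1), the minimum (none and 2), the scaling, the replicate block, the trend, the transcript rule, voom on recovered reads and the libraries left out.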

Additional observations from a re-analysis of the deposited data

How the results depend on the processing

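Plin2, Cebpa and Plin4 kept their calls in all 17 alternatives, at 2.34 to 3.83, 3.65 to 5.27 and -4.89 to -2.83. Of 167 single values of the 10 genes under the alternatives, 147 kept direction and side of the threshold, 11 reversed, 7 gained a call and 2 lost one. Median-of-ratios scaling called 3802 of all genes higher and 3254 lower. Quantile normalization called 3560 and 3313, and either one called 6 of the 10 genes lower. The count of the 10 in the top 10% of spread was 8 with pseudocount 1 and 3 when the minimum was 2 RPKM, at which Plin1, Cidec and Pparg are not tested. Signs reversed with ERCC, median-of-ratios and quantile scaling for Fabp4 (-0.20, -1.12, -0.21), Lipe (-0.18, -1.07, -1.25), Cebpb (-0.30, -1.21, -0.82) and the endothelial Cdh5 (-0.092, -1.002, -0.56). They reversed with median-of-ratios and quantile scaling for Klf2 (-0.48, -0.32), Prkaca (-0.69, -0.20) and the skin gene Krt10 (-0.54, -1.05). Dcn (-0.34) and Plin3 (-0.16) reversed with median-of-ratios scaling, and Ebf2 (-0.19), Sirt1 (-0.30) and Rbp4 (-0.00017) with quantile normalization. Adipoq reversed with pseudocount 1 (0.0033). Leaving out 1 library at a time gave -0.46 to 0.56 for Adipoq, -0.68 to 0.18 for Plin1 and -0.21 to 0.37 for Cebpb. It gave 8694 to 8789 genes higher and 1058 to 1199 lower, and 3 and 1 of the 10 in every case. The cause of these changes was not tested. Deviations of each gene from its group mean correlated between same-numbered libraries of the groups at -0.059, 0.092 and 0.018. These values show no pairing by number, but with 3 libraries a group they cannot exclude one. With the replicate block 8743 genes were higher and 1149 lower, and 3 and 1 of the 10. Plin1 and Cidec rest on as few as 13 reads in a library, which limits their precision.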
